A study of Mus musculus with 12 samples.

Results

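Glutamate receptor and postsynaptic scaffold genes were described in mouse brain RNA precipitated with the U1 small nuclear ribonucleoprotein (U1 snRNP) and in the input RNA of the same lysates, after maximal electroconvulsive stimulation (MECS) and in naive mice. The genes were a list of 38 symbols together with every annotated gene that had at least 50% of its exon bases inside a listed gene on the opposite strand. Each such annotated gene is called a feature here. The annotation, GENCODE M21, placed 26 features inside 15 of the listed genes, and Grin1os, a listed symbol, is 1 of them. The set therefore held 63 of the 55471 rows of each count table, and the whole tables held 8464 such features inside 6185 genes. Counts of features were treated as reads of the gene they lie in, and the features inside 1 gene were summed to a locus named after that gene.

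The 12 libraries formed 4 groups of 3, called MECS U1, naive U1, MECS input and naive input. The tissue was mixed cortex and hippocampus of male C57BL6JL mice aged 3 to 5 months. MECS mice were stimulated through ear clips with 85 mA for 1 s, convulsed, and were killed 90 min later, and naive mice were handled alongside them without stimulation. Homogenates were crosslinked with ultraviolet light at 400 mJ/cm2, a part of each lysate was set aside as input, and the rest was precipitated with an antibody to U1-70K, a protein of the U1 snRNP. No control precipitate was among the libraries, so binding to U1 and unequal recovery of RNA cannot be told apart in a U1 to input ratio. The sources used here do not say whether a lysate held tissue of 1 mouse or of several, and p-values measure the spread between these libraries. In mixed tissue, fewer cells of a type and less RNA per cell cannot be told apart.

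Glutamate opens the AMPA, NMDA and kainate receptor channels and activates the metabotropic receptors, which signal through G proteins. At excitatory synapses the receptors are held in place by layered scaffolds under the membrane. Dlg proteins of the PSD-95 family bind receptor tails, Dlgap proteins link them to Shank, and Shank binds Homer, which reaches the metabotropic receptors. Neuroligins join this assembly to presynaptic neurexins, and the kinase encoded by Camk2a acts on receptors and scaffolds when calcium enters. U1 snRNP pairs with splice donor sites and also restrains polyadenylation inside introns, and the study asked whether neuronal stimulation changes what it binds.

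Gene counts per library ranged from 704432 to 1962312, which was 1.42 to 1.84% of the listed reads. The set held 0.681 to 1.02% of these gene counts, or 6058 to 14443 counts per library. Most of them came from the opposite-strand features. Over the 12 libraries the 26 features held 110306 counts on 28.7 kb of exon, whereas the 37 rows under the genes' own symbols held 15381 counts on 347 kb. With which strand setting reads were counted is not stated in the sources used here, so a value under a symbol is that of the row so named and not a measured level of its transcript. Rows under own symbols made up 18.8% of the set's counts in naive input 2, against 9.97 to 14.2% in the other 11 libraries. The naive changes of the own rows that are given library by library below are therefore also given without it.

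Some features are short windows on the border of an exon of the gene they lie in, and a pair of these had the largest log2 changes between U1 and input RNA among the opposite-strand features. They lie in the genes for the GluN2B and GluN2C subunits of the NMDA receptor. Gm22892 lies on the border of an intron and an exon of Grin2b. Gm25837 covers the end of intron 9 and the start of exon 10 of Grin2c (chr11:115253278-115253385, minus strand for Grin2c, GRCm38). Both are annotated as microRNA genes on the other strand. Another window, Gm26184, is annotated as a small nucleolar RNA gene opposite intron 2 of Dlgap2 (chr8:14273181-14273311, plus strand). The Grin2c and Dlgap2 windows are shown because the first was lower in U1 than in input RNA and the other was higher in U1 than in input RNA of naive brain. Their sequences are those of GENCODE M21, turned to the strand of the receptor or scaffold gene and written from its 5′ side, with exon bases of that gene in capitals.
Gm25837 in Grin2c: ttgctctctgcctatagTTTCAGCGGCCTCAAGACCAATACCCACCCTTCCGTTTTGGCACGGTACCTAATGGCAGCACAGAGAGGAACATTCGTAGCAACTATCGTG
Gm26184 in Dlgap2: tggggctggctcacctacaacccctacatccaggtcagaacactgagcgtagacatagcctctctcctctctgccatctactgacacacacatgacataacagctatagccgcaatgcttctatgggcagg
The Grin2c window holds 91 coding exon bases after 17 intron bases. The Dlgap2 window is intronic over all of its 131 bases.

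Levels are given as CPM, counts scaled to 1e6 of a library's filtered gene counts times a scaling factor (TMM). Summed over its features, Grin1 was the most abundant locus, with a mean of 3789 CPM over the 12 libraries. It held 37.8 to 51.6% of the set's counts in each library. Dlgap1 followed at 1038 CPM, Shank3 at 648, Grin2b at 510, Nlgn1 at 463, Dlgap4 at 320, Shank2 at 287, Homer2 at 180 and Dlg1 at 161 CPM. Dlgap2 had 81.4 CPM, Grin2d 63.0, Grin2c 56.7, Grm4 21.4, Grm5 19.2 and Grm8 8.79 CPM. Several neighbours in this order overlapped across their libraries, among them Grin2b and Nlgn1, Homer2 and Dlg1, and Grm4 and Grm5. Per kb of exon covered, the order differed. Grin1 had 1311 CPM per kb, the single Grin2c window had 525, the Grin2b windows 443 and the single Grm5 window 300, whereas Grin2d had 43.2 and Grm4 42.9 CPM per kb. These are densities of the windows that happen to be annotated, not of whole transcripts.

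**Figure D1:**
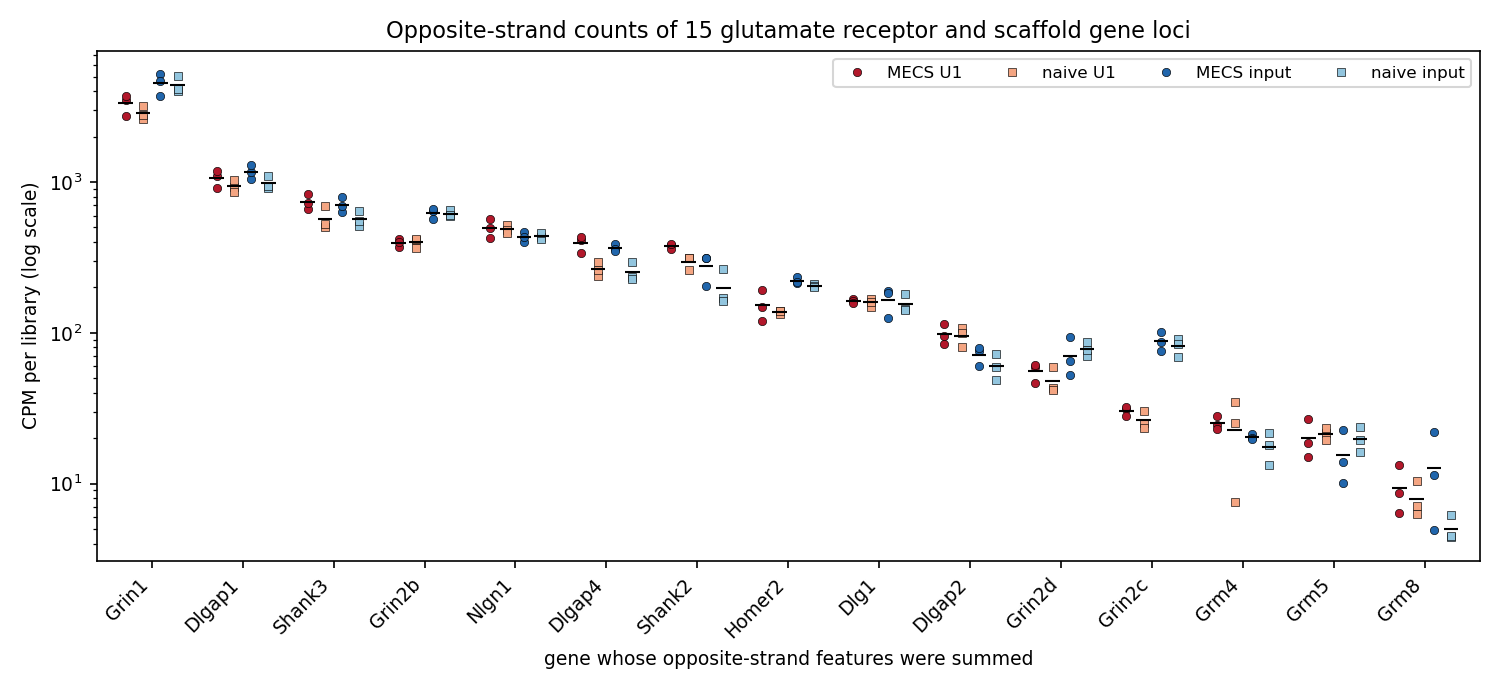
CPM per library (log axis) of the 15 loci, ordered by mean. Points are libraries, short lines are group means, circles are MECS and squares naive, red shades are U1 and blue shades input. In Grin2c the U1 libraries lie between 23.3 and 32.3 CPM and the input libraries between 69.6 and 102 CPM.

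The comparison of U1 with input RNA showed the NMDA receptor loci Grin2b and Grin2c lower in the precipitate in both kinds of brain, while Grin1 and Grin2d passed in naive brain. In MECS brain 3 of the 15 loci, Grin2b, Grin2c and Homer2, passed an adjusted p of 0.05 in the quasi-likelihood test of edgeR, all lower in U1. Among all loci of the tables the called share was 11.2% in that comparison, 5.12% higher and 6.07% lower. In naive brain 7 of 14 tested loci passed, against 16.2% of all loci, 7.02% higher and 9.15% lower. Grin1, Grin2b, Grin2c, Grin2d and Homer2 were lower, and Shank2 and Dlgap2 were higher. The median log2 change of the set's loci was -0.03 in MECS brain and 0.02 in naive brain, beside 0.05 and 0.03 over all loci tested. The count in naive brain was 4 without naive input 1 and also 4 without naive U1 1. With the lysate as a block, 6 loci passed in MECS brain and 7 in naive brain.

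Grin1 encodes GluN1, the subunit that every NMDA receptor contains. Its locus is the single feature Grin1os, which lies over exons 10 to 19 and 21 of the gene and parts of the introns there (chromosome 2, 25291220 to 25298925), with 45.2% of its bases over exons of Grin1. In MECS brain it had 3513, 2738 and 3730 CPM in U1 RNA, against 5220, 3732 and 4696 CPM in input RNA. In naive brain it had 3206, 2612 and 2799 CPM in U1 RNA, against 5060, 4005 and 4156 CPM in input RNA. Every U1 library was below every input library of its brain, by only 2 CPM in MECS brain. The log2 change was -0.45 in MECS brain (SE 0.15, adjusted p = 0.0574), which did not pass, and -0.61 in naive brain (SE 0.14, adjusted p = 0.00238), which did. With the lysate as a block the MECS value was -0.45 (SE 0.13, adjusted p = 0.00874) and passed, and DESeq2 called the locus as well. Tested among all features in MECS brain, Grin1os did not pass (edgeR adjusted p = 0.068), and DESeq2 did not call it. With the block that feature passed (edgeR adjusted p = 0.000805).

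Grin2b, the gene of a subunit that slows the decay of NMDA currents and is abundant in cortex and hippocampus, holds 3 features. Its locus fell to 420, 369 and 403 CPM in MECS U1, against 644, 570 and 660 CPM in MECS input, a log2 change of -0.65 (SE 0.12, adjusted p = 0.000942). It fell to 410, 422 and 363 CPM in naive U1, against 598, 652 and 606 CPM in naive input (-0.63, SE 0.14, adjusted p = 0.00151). The U1 and input groups were well apart in both brains. The 3 features did not move alike. The exon window Gm22892 had 84.9, 55.1 and 72.6 CPM in MECS U1, against 177, 153 and 144 CPM in MECS input (-1.16, SE 0.18, adjusted p = 0.000114). In naive brain it had 72.1, 85.9 and 74.7 CPM in U1, against 192, 185 and 166 CPM in input (-1.20, SE 0.18, adjusted p = 9.93e-06). Gm14329 (chromosome 6, 135732870 to 135744311), with 24.2% of its bases in the last coding exon and the rest in intron 10, fell by 0.92 in MECS brain (SE 0.15, adjusted p = 0.000183) and by 0.99 in naive brain (SE 0.16, adjusted p = 3.46e-05) on the log2 scale. Gm14330 (chromosome 6, 135875505 to 135884792) lies wholly in intron 4 of Grin2b. It had 167, 142 and 167 CPM in MECS U1, against 121, 157 and 169 CPM in MECS input (0.10, SE 0.16, adjusted p = 0.807). In naive brain it had 174, 179 and 140 CPM in U1, against 88.8, 144 and 148 CPM in input (0.39, SE 0.19, adjusted p = 0.234). The intron window overlapped between U1 and input in both brains, and the exon window did not in either.

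The log2 U1 to input ratio of the intron window Gm14330 exceeded that of the exon window Gm22892 in each of the 6 lysates. The excess was 1.52, 1.33 and 0.98 in the MECS lysates and 2.37, 1.41 and 1.08 in the naive lysates. This pair was picked after its values were seen, so no test is given.

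**Figure D2:**
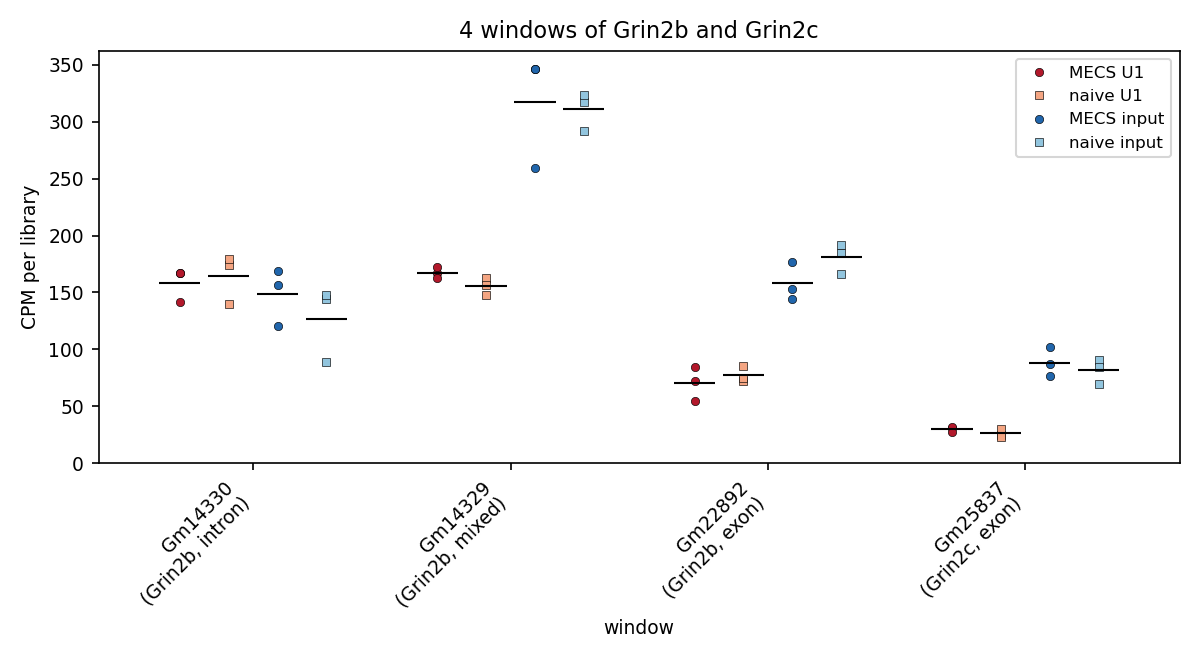
CPM per library of 3 windows of Grin2b and 1 of Grin2c. Points are libraries, short lines are group means, circles are MECS and squares naive, red shades are U1 and blue shades input. The exon windows Gm22892 and Gm25837 lie lower in U1 than in input in every library, and the intron window Gm14330 overlaps between MECS U1 and MECS input.

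Grin2c encodes a subunit best known from cerebellar granule cells and also made by some forebrain astrocytes. Its only feature is the exon window Gm25837. It had 31.1, 32.3 and 28.0 CPM in MECS U1, against 102, 76.3 and 87.1 CPM in MECS input (-1.54, SE 0.20, adjusted p = 3.23e-05). In naive brain it had 25.3, 23.3 and 30.2 CPM in U1, against 90.6, 84.9 and 69.6 CPM in input (-1.63, SE 0.24, adjusted p = 5.42e-06). This was the largest change of any locus of the set in both brains. Both NMDA receptor exon windows are annotated as microRNA genes, and the sources used here do not say how reads that match several places were counted.

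Grin2d, whose subunit is prominent in interneurons and in the young brain, holds the feature Gm45441 (chromosome 7, 45830895 to 45835249), with 85.9% of its exon bases inside the gene and 44.1% over exons of Grin2d. It had 59.2, 46.4 and 61.1 CPM in MECS U1, against 94.0, 52.4 and 65.3 CPM in MECS input (-0.35, SE 0.22, adjusted p = 0.378). In naive brain it had 43.0, 41.9 and 59.6 CPM in U1, against 87.1, 70.0 and 76.6 CPM in input (-0.70, SE 0.22, adjusted p = 0.0256). The groups overlapped in MECS brain and were separate in naive brain. The naive call was lost without naive input 1 or 3, without naive U1 1 or 2, with library size scaling, and when the row under the symbol Grin2d was added. Its feature, tested among all features, lost the call in 9 of 13 alternatives. Among them were DESeq2, no filter and the lysate as a block (-0.68, SE 0.22, adjusted p = 0.0572).

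Of the metabotropic receptors, Grm4, Grm5 and Grm8 hold 1 intronic feature each. Grm4 and Grm8 encode presynaptic receptors that reduce release, and Grm5 encodes the postsynaptic receptor that binds Homer. Their counts were low, and none passed the test. Grm4 had 6 to 49 counts per library, Grm5 11 to 45 and Grm8 3 to 24. The log2 change in MECS brain was 0.29 (SE 0.28) for Grm4, 0.36 (SE 0.36) for Grm5 and -0.46 (SE 0.48) for Grm8. In naive brain it was 0.42 (SE 0.38) for Grm4 and 0.14 (SE 0.33) for Grm5, and Grm8 had too few counts to be tested. The Grm5 and Grm8 windows are annotated as a small nuclear and a small nucleolar RNA, families with many near-identical copies, so their counts are uncertain.

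Among the scaffolds, Homer2 was lower in U1 in both brains and Shank2 and Dlgap2 were higher in naive U1. Homer2 encodes an adaptor that ties metabotropic receptors to Shank. Its locus had 119, 149 and 192 CPM in MECS U1, against 234, 213 and 218 CPM in MECS input (-0.53, SE 0.16, adjusted p = 0.0393). The naive values were 140, 134 and 140 CPM in U1, against 212, 205 and 200 CPM in input (-0.57, SE 0.16, adjusted p = 0.00899). The naive U1 libraries lay close together, while MECS U1 spanned 119 to 192 CPM. The MECS call was lost in 5 of the alternatives, each leaving out 1 library: any of the MECS inputs, MECS U1 1 or MECS U1 2. Nearly all of the counts came from Gm44570 (chromosome 7, 81610109 to 81614166), near the end of the gene, with 14.1% of its bases over exons 7 to 9 (log2 change -0.55, SE 0.17, in MECS brain and -0.61, SE 0.16, in naive brain).

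Shank2 encodes a scaffold of the deep postsynaptic layer. Its locus had 381, 358 and 388 CPM in MECS U1, against 314, 313 and 204 CPM in MECS input (0.44, SE 0.15, adjusted p = 0.0714). Naive lysates had 315, 262 and 314 CPM in U1, against 169, 162 and 266 CPM in input (0.56, SE 0.17, adjusted p = 0.0209). Naive input 3 reached the lowest naive U1 library, and the naive call was lost without naive input 1 or 2 and without naive U1 1 or 3. With the lysate as a block the MECS value was 0.46 (SE 0.12, adjusted p = 0.00267) and passed. Nearly all counts came from Gm14372 (chromosome 7, 144368048 to 144406933), in introns 16 and 19. Tested among all features, its naive call (0.55, SE 0.18, adjusted p = 0.0467) was lost in 9 of 13 alternatives, DESeq2 among them. The other Shank2 feature, Gm44999 in intron 9, had 2 to 25 counts per library.

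Dlgap2, one of the genes for proteins that link PSD-95 to Shank, had 95, 84.2 and 114 CPM in MECS U1, against 59.9, 76.3 and 79.2 CPM in MECS input (0.46, SE 0.19, adjusted p = 0.14). For naive mice the values were 107, 100 and 80 CPM in U1, against 48.4, 59.6 and 72.7 CPM in input (0.67, SE 0.21, adjusted p = 0.0272). U1 was above input in every library of both brains. With the lysate as a block the MECS value was 0.45 (SE 0.16, adjusted p = 0.0481) and passed. In naive brain the change came mainly from the intron 2 window shown above. Gm26184 had 60.7, 50.4 and 73.8 CPM in MECS U1, against 34.1, 45 and 60.4 CPM in MECS input (0.43, SE 0.23, adjusted p = 0.303). The naive values were 63.2, 76.6 and 53.3 CPM in U1, against 22.0, 26.8 and 44.9 CPM in input (1.03, SE 0.26, adjusted p = 0.0076). It is annotated as a small nucleolar RNA, so copies elsewhere could share its reads. When mitochondrial, ribosomal and small RNA genes were left out, the rest of the Dlgap2 locus had a log2 change of 0.08 in naive brain (adjusted p = 0.905). The locus also lost its naive call with DESeq2, without naive input 1 or 2 and without naive U1 1 or 2. C030037F17Rik, in intron 6, had a log2 change of 0.51 in MECS brain (SE 0.25, adjusted p = 0.27) and 0.09 in naive brain (SE 0.31, adjusted p = 0.914).

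The other scaffold and adhesion loci did not pass in either brain, and they are given with approximate intervals. Shank3, a scaffold gene linked to autism, had a log2 change of 0.06 in MECS brain (95% interval -0.19 to 0.31) and 0.01 in naive brain (-0.29 to 0.31). Dlgap4 had 0.10 (-0.14 to 0.35) in MECS brain and 0.07 (-0.23 to 0.37) in naive brain. Dlgap1 had -0.13 (-0.38 to 0.12) and -0.06 (-0.34 to 0.22) in those brains. Dlg1, the gene of the receptor-binding scaffold SAP97, had -0.03 (-0.35 to 0.28) in MECS brain and 0.02 (-0.30 to 0.34) in naive brain. Of the 2340 counts of the Dlg1 locus over the 12 libraries, 2167 came from Gm49713. That feature is a processed pseudogene in intron 13, whose reads could belong to its parent gene. Nlgn1, which encodes a neuroligin of excitatory synapses, had 0.20 (-0.05 to 0.45) in MECS brain and 0.16 (-0.12 to 0.43) in naive brain. Of the 6779 counts of the Nlgn1 locus over the 12 libraries, 5081 came from A830092H15Rik. That feature has 70.4% of its exon bases inside Nlgn1, at the start of the gene.

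Of these loci, 2 are given by library, Dlgap1 and Nlgn1, both among the most abundant of the set. Dlgap1 had 1094, 914 and 1187 CPM in MECS U1, against 1043, 1159 and 1293 CPM in MECS input. Naive lysates had 929, 1036 and 854 CPM in U1, against 910, 944 and 1094 CPM in input, and U1 and input overlapped in both brains. Nlgn1 had 493, 427 and 571 CPM in MECS U1, against 464, 401 and 433 CPM in MECS input. In naive brain Nlgn1 had 518, 480 and 459 CPM in U1, against 435, 418 and 457 CPM in input. The naive groups of Nlgn1 were separate by 2 CPM without passing the test.

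Read by position, every feature of the set that passed the test as lower in U1 overlapped exons of its gene at least in part, and most intron features did not pass. The set has 3 exon features (at least 80% of the overlap exonic), 3 mixed features and 20 intron features (at most 20% exonic). In MECS brain 2 of 3 exon features, 1 of 3 mixed and 1 of 19 tested intron features were lower in U1, and none was higher. Over all features of each class, 17.9% of exon, 10.3% of mixed and 1.69% of intron features were lower in that comparison, and 4.04% of intron features were higher. In naive brain 2 of 3 exon, 3 of 3 mixed and 1 of 17 tested intron features were lower, and 2 intron features, Gm26184 and Gm14372, were higher. The naive calls of the mixed feature Gm45441 and of Gm14372 were each lost in 9 of 13 alternatives. Those of Gm26184 and of the intron feature Gm44570 were each lost in 1, without naive input 1. In MECS brain the call of Gm44570 was lost in 6 of 13. The shares over all features in naive brain were 23.6% of exon, 14.8% of mixed and 2.14% of intron features lower, with 5.1% of intron features higher. The median log2 change of the tested intron features was 0.11 in MECS brain and 0.13 in naive brain, and of the mixed ones -0.45 and -0.70. The remaining exon feature, A830092H15Rik, overlaps a 5′ untranslated exon at the start of Nlgn1. It had log2 changes of 0.20 (SE 0.14) in MECS brain and 0.15 (SE 0.16) in naive brain, neither past the test. Without the strand setting, reads of that feature and reads of Nlgn1 cannot be told apart there.

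**Figure D3:**
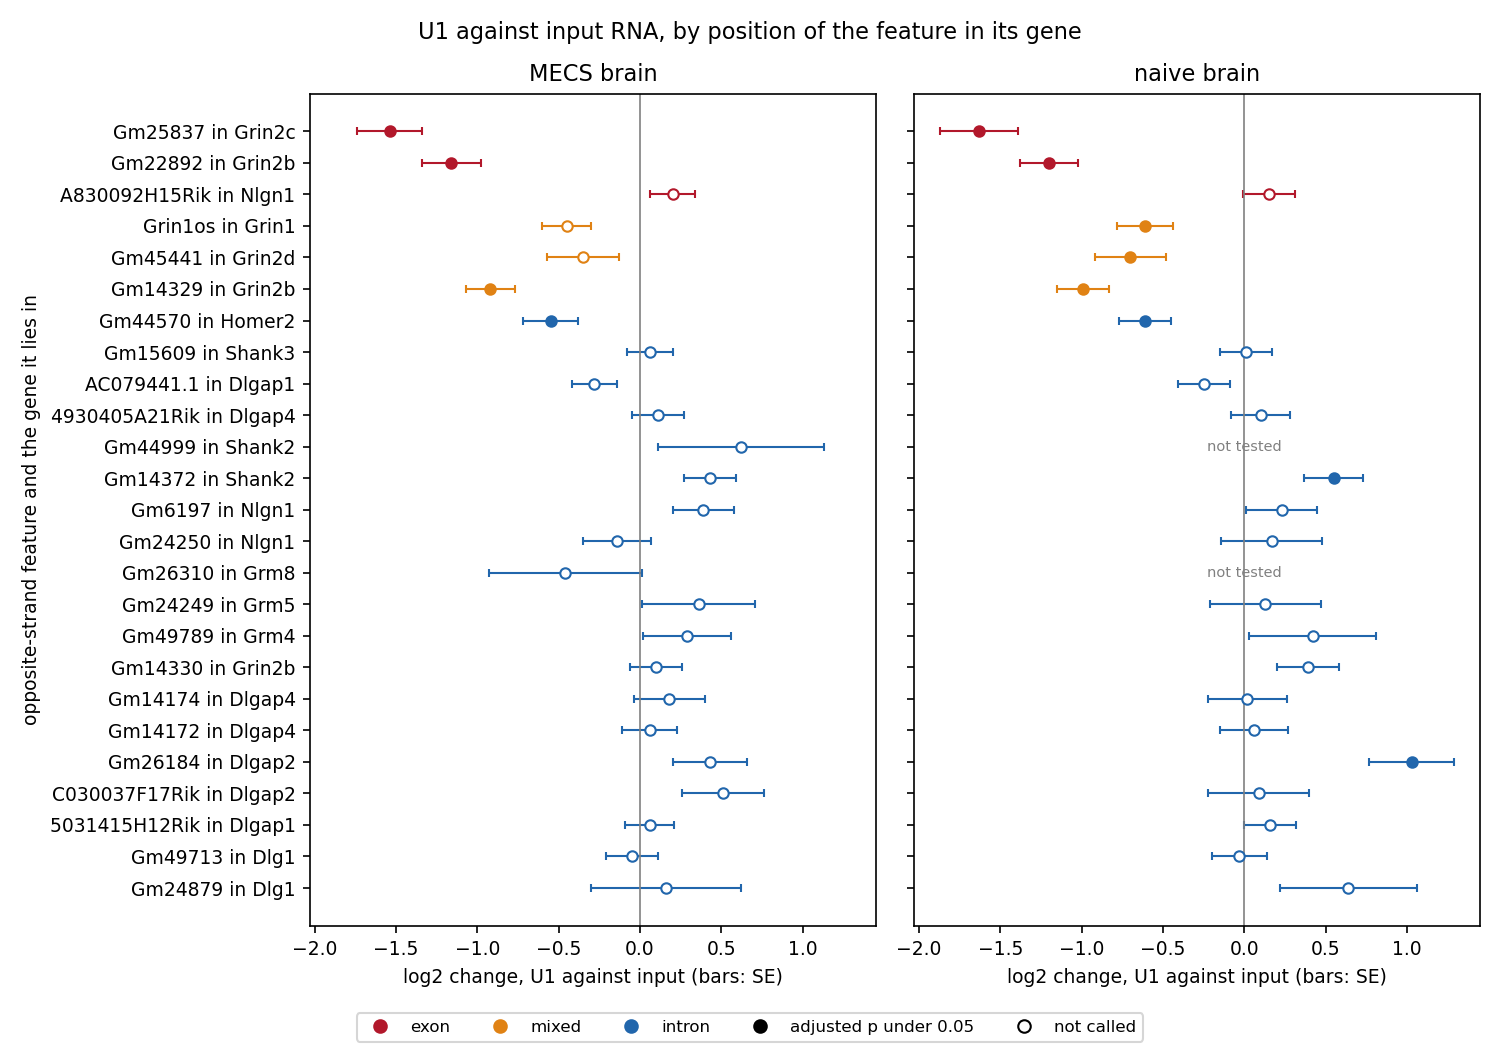
Log2 change of U1 against input for each tested opposite-strand feature, with MECS brain on the left and naive brain on the right. Bars are SE, filled points passed an adjusted p of 0.05, and colour gives the class of the feature in its gene (red exon, orange mixed, blue intron). The exon windows of Grin2c and Grin2b lie furthest to the left in both brains.

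The rows under the genes' own symbols had fewer counts, and those that passed were lower in U1. In MECS brain 6 of 24 tested rows were lower and 0 higher. In naive brain 3 of 26 were lower and 0 higher. Over all features 8.51% passed in MECS brain and 10.5% in naive brain, with 5.21% and 6.26% lower and 3.3% and 4.19% higher. The median of the tested rows was -0.47 in MECS brain and -0.29 in naive brain, beside 0.02 and 0.03 over all features. Camk2a, Shank1 and Dlgap3 passed in both brains.

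Camk2a encodes the alpha subunit of the calcium and calmodulin kinase that is concentrated at excitatory synapses. Its row had 38.9, 30.7 and 45.2 CPM in MECS U1, against 141, 138 and 209 CPM in MECS input (-2.07, SE 0.21, adjusted p = 5.91e-07). For naive mice the values were 43.0, 17.6 and 60.5 CPM in U1, against 102, 200 and 110 CPM in input (-1.80, SE 0.29, adjusted p = 3.95e-05). Naive lysate 2 held both the lowest U1 and the highest input value. Without naive input 2 the naive change was -1.46 (SE 0.30, adjusted p = 0.000779), and without naive U1 2 it was -1.34 (SE 0.25, adjusted p = 6.59e-05).

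Shank1, the gene of another Shank scaffold, had 80.2, 63.8 and 61.7 CPM in MECS U1, against 199, 146 and 204 CPM in MECS input (-1.42, SE 0.18, adjusted p = 8.84e-06). The naive values were 79.6, 51.8 and 114 CPM in U1, against 161, 255 and 155 CPM in input (-1.22, SE 0.23, adjusted p = 0.000265). Without naive input 2 the naive change was -0.97 (SE 0.24, adjusted p = 0.00637). Dlgap3, whose protein links PSD-95 to Shank in the striatum and cortex, had 18.7, 11.0 and 14.6 CPM in MECS U1, against 67.4, 39.5 and 46.5 CPM in MECS input (-1.79, SE 0.28, adjusted p = 0.000128). Naive lysates had 20.2, 10.4 and 23.1 CPM in U1, against 53.6, 86.4 and 49.5 CPM in input (-1.85, SE 0.31, adjusted p = 6.16e-05). Without naive input 2 that change was -1.59 (SE 0.33, adjusted p = 0.00111). All of the U1 values lay below all of the input values of the same brain for these 3 rows.

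Dlg4 encodes PSD-95, the most abundant scaffold of excitatory synapses. Its row had 10.9, 11.8 and 7.00 CPM in MECS U1, against 25.0, 21.1 and 32.6 CPM in MECS input (-1.41, SE 0.34, adjusted p = 0.00809). For naive mice the values were 7.58, 10.9 and 21.3 CPM in U1, against 17.6, 65.5 and 22.4 CPM in input (-1.29, SE 0.43, adjusted p = 0.0503), which did not pass. The naive groups overlapped, and without naive input 2 the naive change was -0.58 (SE 0.43, adjusted p = 0.553). The MECS call of Dlg4 was lost without MECS input 3 and without MECS U1 3.

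The own rows of Shank2 and Grin2b passed only the test in MECS brain. Shank2 had 28.0, 21.3 and 17.8 CPM in MECS U1, against 39.4, 47.8 and 45.5 CPM in MECS input (-0.99, SE 0.25, adjusted p = 0.0127). In naive brain its row had 27.8, 15.5 and 35.6 CPM in U1, against 29.0, 37.2 and 29.4 CPM in input (-0.30, SE 0.32, adjusted p = 0.676). Grin2b had 22.6, 15.7 and 16.5 CPM in MECS U1, against 34.9, 35.8 and 34.6 CPM in MECS input (-0.94, SE 0.26, adjusted p = 0.0266). In naive brain its row had 37.9, 23.3 and 32.0 CPM in U1, against 27.3, 37.2 and 26.3 CPM in input (0.03, SE 0.30, adjusted p = 0.97). The naive change without naive input 2 was -0.20 for Shank2 (SE 0.35, adjusted p = 0.853) and 0.18 for Grin2b (SE 0.33, adjusted p = 0.864). The difference between the brains did not pass for either row: the MECS effect on the ratio was -0.97 for Grin2b (SE 0.39, adjusted p = 0.997) and -0.67 for Shank2 (SE 0.41, adjusted p = 0.997). The Shank2 row and the Shank2 locus had changes of opposite sign in both brains. The MECS call of the Grin2b row was lost with DESeq2 and in 5 of the 6 fits that left out a library, and that of the Shank2 row without MECS U1 3. With the lysate as a block, the own rows of Gria2 (-0.58, SE 0.19, adjusted p = 0.0267) and Shank3 (-0.69, SE 0.22, adjusted p = 0.0186) also passed in MECS brain.

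**Figure D4:**
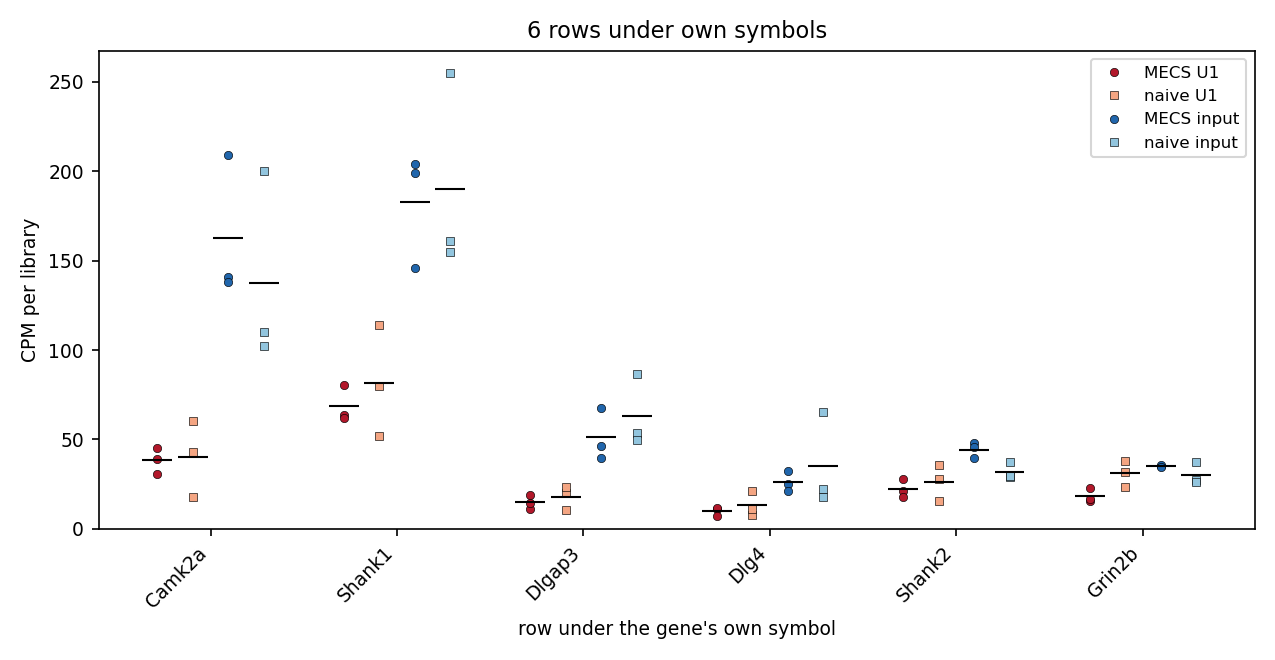
CPM per library of the 6 rows under own symbols that passed in at least 1 brain. Points are libraries, short lines are group means, circles are MECS and squares naive, red shades are U1 and blue shades input. For Camk2a, Shank1 and Dlgap3 every U1 library is below every input library of the same brain.

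The remaining own rows did not pass. Gria1 and Gria2, which encode the main AMPA receptor subunits of forebrain pyramidal cells, had MECS changes of -0.70 (SE 0.35) and -0.53 (SE 0.27) and naive changes of -0.28 (SE 0.38) and 0.02 (SE 0.32). The naive change of Gria2 was 0.54 without naive input 2 (SE 0.33, adjusted p = 0.421). The row under Grin1 had a log2 change of -0.22 (SE 0.19) in MECS brain and -0.35 (SE 0.28) in naive brain. Grin2a, the gene of the other main forebrain NMDA subunit, had log2 changes of -0.45 in both MECS brain (SE 0.35) and naive brain (SE 0.36). Grin3a and Homer3 were the best counted of the own rows that did not pass, with 77 to 206 and 84 to 207 counts per library. Grin3a had a log2 change of -0.05 in MECS brain (SE 0.16) and -0.27 in naive brain (SE 0.19). Homer3 had a log2 change of 0.03 in MECS brain (SE 0.17) and -0.02 in naive brain (SE 0.18). Camk2b, the partner of Camk2a in the kinase, had -0.21 (SE 0.23) and 0.05 (SE 0.29) in those brains, in contrast to the Camk2a row. The kainate receptor rows were sparse: Grik5 had 15 to 45 counts per library, and Grik1, Grik2, Grik3 and Grik4 had 0 to 26. Gria3, Gria4, Grin2c, Grik2, Grik4, Grm2, Grm4, Grm8, Dlg1, Dlg3 and Nlgn3, 11 of the 37 own rows, had too few counts to be tested in any comparison of 2 groups. The rows under Nlgn1 and Nlgn2 had naive changes of -0.52 (SE 0.27) and -0.97 (SE 0.47), neither past the test. Without naive input 2 the Nlgn2 value was -0.59 (SE 0.53, adjusted p = 0.634), and without naive U1 2 the Nlgn1 row passed (-0.97, SE 0.31, adjusted p = 0.0269). In naive brain, lysate 2 had the lowest of the 3 U1 to input ratios for 22 of the 26 tested own rows. This was not counted over all features, so it cannot be called a trait of these genes. Without naive input 2 the median naive change of the tested own rows was -0.16, against -0.29 with it, and 3 rows, Camk2a, Shank1 and Dlgap3, passed in both fits.

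Convulsion changed none of the set's loci past the threshold in either kind of RNA. By edgeR with Benjamini-Hochberg adjustment, 0 of 14 loci passed in input RNA, where 1.75% of all loci did, and 0 of 15 passed in U1 RNA, where 0.446% did. An unadjusted p under 0.05 was found for 3 loci in input and 3 in U1 RNA, Dlgap4, Shank2 and Shank3 in each case. Over all loci such a p was found for 412 of 3428 in input and 470 of 3586 in U1 RNA. DESeq2 called 0 of the set's loci in input and 1, Dlgap4, in U1 RNA. Among features and own rows 0 of 49 passed in input RNA and 0 of 49 in U1 RNA, where 0.606% and 0.386% of all features did. Of these, 4 and 5 of the set had an unadjusted p under 0.05, beside 1005 of 10402 and 1172 of 11141 over all features. DESeq2 called 0 of the set's features and own rows in input and 1 in U1 RNA. The median log2 change of the loci was 0.15 in U1 RNA, with 13 of 15 above 0, and 0.09 in input RNA, with 10 of 14 above 0. Over all loci the medians were 0.04 in U1 and 0.01 in input RNA. The tested own rows leaned the other way, with a median of -0.20 in U1 RNA and 6 of 24 above 0. In input RNA their median was -0.13, with 8 of 26 above 0, and it was 0.16 without naive input 2. Over all features the median was -0.02 in both kinds of RNA.

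The Dlgap4 locus came closest. Dlgap4 encodes another protein between PSD-95 and Shank, and its 3 features lie in introns 1 and 7. In U1 RNA it had 413, 338 and 430 CPM after MECS, against 240, 294 and 262 CPM in naive mice (0.55, SE 0.14, adjusted p = 0.0655). In input RNA it had 389, 359 and 351 CPM after MECS, against 236, 229 and 297 CPM in naive mice (0.50, SE 0.14, adjusted p = 0.0686). The MECS libraries lay above the naive ones without overlap in both kinds of RNA, which come from the same lysates. The adjusted p ranged from 0.0141 to 0.346 over the alternatives in U1 RNA and from 0.00392 to 0.323 in input RNA. In U1 RNA the locus passed without naive U1 2 and without MECS U1 2, and in input RNA it passed without naive input 3.

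Within Dlgap4 the feature with the largest change was 4930405A21Rik in intron 7 (chromosome 2, 156714540 to 156720909). It had 189, 183 and 203 CPM in MECS U1, against 119, 131 and 105 CPM in naive U1 (0.68, SE 0.16, adjusted p = 0.0551). In input RNA it had 201, 192 and 138 CPM after MECS, against 110, 113 and 111 CPM in naive mice (0.65, SE 0.18, adjusted p = 0.0749). Gm14172, a processed pseudogene in intron 1 whose reads could belong to its parent gene, had a log2 change of 0.50 in U1 (SE 0.19, adjusted p = 0.303) and 0.48 in input RNA (SE 0.19, adjusted p = 0.358). Gm14174, at the start of intron 1, had a log2 change of 0.28 in U1 (SE 0.22) and 0.10 in input RNA (SE 0.24). The row under the symbol Dlgap4 had a log2 change of -0.03 in U1 (SE 0.29) and 0.02 in input RNA (SE 0.28).

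The Shank2 and Shank3 loci had higher means after MECS and did not pass. Shank3 had 838, 661 and 723 CPM in MECS U1, against 502, 526 and 691 CPM in naive U1 (0.36, SE 0.15, adjusted p = 0.304). In input RNA Shank3 had 800, 630 and 699 CPM after MECS, against 645, 509 and 556 CPM in naive mice (0.29, SE 0.13, adjusted p = 0.364). Both pairs of groups overlapped. Shank2 had a log2 change of 0.33 in U1 (SE 0.13, adjusted p = 0.276), where its groups were separate, and 0.44 in input RNA (SE 0.18, adjusted p = 0.306), where they overlapped.

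The abundant NMDA receptor loci had comparatively narrow approximate intervals for a convulsion change. Grin2b had -0.02 in U1 (95% interval -0.27 to 0.23) and -0.01 in input RNA (-0.26 to 0.24). Grin1 had 0.20 in U1 (-0.11 to 0.50) and 0.02 in input RNA (-0.23 to 0.27). Nlgn1 had 0.02 in U1 (-0.25 to 0.29) and -0.04 in input RNA (-0.29 to 0.22), and Dlg1 0.02 (-0.26 to 0.29) and 0.06 (-0.28 to 0.40). Most Nlgn1 counts came from A830092H15Rik, and most Dlg1 counts from the processed pseudogene Gm49713. Grm5 had the widest of the tested intervals in input RNA, -1.06 to 0.39. Of own rows, Camk2a had a log2 change of -0.02 in U1 (SE 0.32) and 0.25 in input RNA (SE 0.21). The lowest unadjusted p of the own rows were those of Gria2 in input RNA (0.61, SE 0.29, adjusted p = 0.5) and Grin2b in U1 RNA (-0.74, SE 0.30, adjusted p = 0.36). The change in input RNA without naive input 2 was 1.15 for Gria2 (SE 0.29, adjusted p = 0.0833) and 0.60 for Camk2a (SE 0.22, adjusted p = 0.324). The median input change of the 26 tested own rows was 0.16 without that library and -0.13 with it, and 0 passed in both fits.

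**Figure D5:**
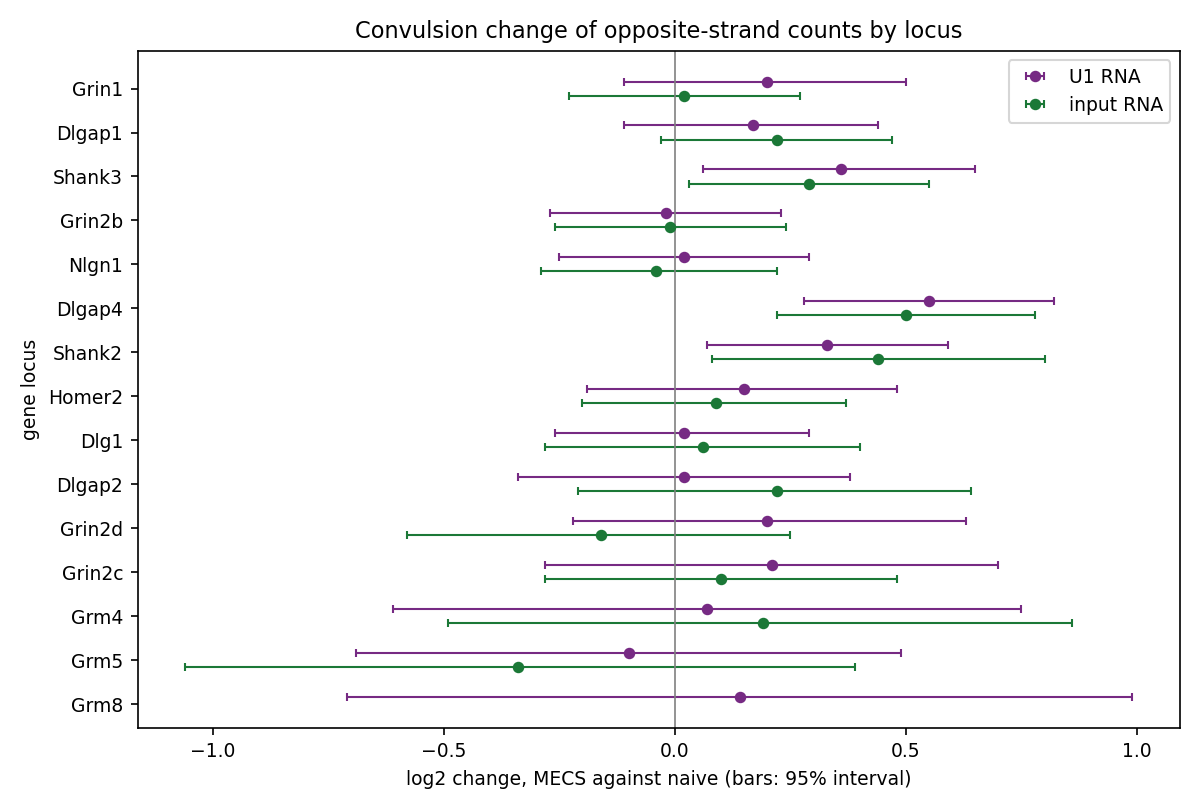
Log2 change of MECS against naive for each locus, ordered from the most to the least abundant. Purple points are U1 RNA and green points input RNA, and bars are 95% intervals. Dlgap4 has the highest values, 0.55 in U1 and 0.50 in input RNA, and Grin2b lies within 0.02 of 0 in both.

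The last comparison asked whether convulsion changed the U1 to input ratio, as an interaction over all 12 libraries. None of the 15 loci passed, nor any of the 54 features and own rows tested, and 0% of all loci and 0% of all features did. By edgeR with Benjamini-Hochberg adjustment 0 of 3711 loci and 0 of 12184 features of the whole tables passed, with 116 and 383 at an unadjusted p under 0.05. DESeq2 also called 0 of the set. The loci's median was 0.04, with a range of -1.15 (Grm8, SE 0.72) to 0.36 (Grin2d, SE 0.31). Grin1 had 0.17 (95% interval -0.24 to 0.58), Grin2b -0.02 (-0.37 to 0.33), Homer2 0.05 (-0.38 to 0.48) and Grin2c 0.10 (-0.49 to 0.69). Among own rows the largest differences were those of Grik2 at -1.52 (SE 0.82), with 3 to 15 counts per library, Grin2c at -1.15 (SE 0.90), with 2 to 13, and Grin2b at -0.97 (SE 0.39), the single row with an unadjusted p under 0.05. The loci whose naive U1 to input call was not matched in MECS brain, Grin1, Grin2d, Shank2 and Dlgap2, had ratio changes of 0.17, 0.36, -0.12 and -0.21, none past the test. Per lysate the log2 ratio of Grin1 was -0.57, -0.45 and -0.33 in MECS brain and -0.66, -0.62 and -0.57 in naive brain. That of Grin2c was -1.69, -1.23 and -1.62 in MECS brain and -1.82, -1.84 and -1.19 in naive brain. That of Shank2 was 0.28, 0.19 and 0.93 in MECS brain and 0.90, 0.69 and 0.24 in naive brain. For Grin2c and Shank2 the MECS and naive lysates overlapped, and for Grin1 they met at -0.57.

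Other genes of the same pathways, taken from lists written with earlier results of these data known, were read in the same fits, both as loci and as rows under their own symbols. Over all loci 6.07% were lower and 5.12% higher in MECS U1, and 9.15% were lower and 7.02% higher in naive U1. Over all features, which include rows under own symbols, 5.21% were lower and 3.3% higher in MECS U1, and 6.26% were lower and 4.19% higher in naive U1. Of the auxiliary subunits of ionotropic receptors, 1 of 5 tested loci was lower in U1 in both brains, Neto1, a partner of kainate and NMDA receptors (MECS -0.69, SE 0.14, and naive -0.54, SE 0.17). Of their own rows 2 of 12 were lower in MECS brain and 1 of 13 in naive brain. Frrs1l, whose protein takes part in the assembly of AMPA receptors, was lower in both (MECS -1.87, SE 0.35, and naive -1.94, SE 0.41), and Olfm1 was lower in MECS brain (-1.71, SE 0.34).

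Of other scaffold and adaptor loci, 1 of 12 was lower in MECS brain and 2 of 12 in naive brain, and 0 were higher. They were Iqsec1, whose protein activates a small GTPase at synapses (MECS -0.94, SE 0.13, and naive -0.98, SE 0.14), and in naive brain Lrrc7 (-0.45, SE 0.16). Of the own rows of that list 0 were lower, and 1 of 18 was higher in MECS brain, Grip2, the gene of an AMPA receptor binding protein (1.04, SE 0.27, adjusted p = 0.0144). In naive brain 0 of its 19 tested own rows passed.

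Of synaptic adhesion loci, 3 of 11 were lower in MECS brain and 5 of 10 in naive brain, and 0 were higher. They included the latrophilin genes Adgrl1 (MECS -1.11, SE 0.13, and naive -1.15, SE 0.15) and Adgrl3 (MECS -1.30, SE 0.16, and naive -1.17, SE 0.15). The adhesion loci had median changes of -0.31 and -0.41 in those brains. Their own rows did not show this: 0 of 20 passed in MECS brain, and in naive brain 0 of 19 were lower and 1 was higher, Lrrtm2 (0.55, SE 0.17, adjusted p = 0.033). The Lrrtm2 call was lost without naive input 2 (0.49, SE 0.20, adjusted p = 0.164). The own rows had medians of -0.33 in MECS brain and -0.17 in naive brain.

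None of the 3 other glutamate receptor loci passed, and none of their own rows. Of the 2 tested loci for glutamate release and uptake, Slc1a2, the gene of the main astrocyte glutamate transporter, was lower in both brains (MECS -1.60, SE 0.15, and naive -2.11, SE 0.16). Of the 6 own rows of that list, 3 were lower in both brains, Slc1a2, Slc17a7, the gene of a vesicular glutamate transporter, and Glul, the gene of glutamine synthetase. The naive call of Glul (-1.40, SE 0.40, adjusted p = 0.0179) was lost without naive input 2 (-0.91, SE 0.41, adjusted p = 0.213).

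Of the 11 postsynaptic kinase, phosphatase and GTPase regulator loci, 1 was higher in U1 in each brain, Prkce, a protein kinase C gene (MECS 0.51, SE 0.15, and naive 0.46, SE 0.15). In each brain 1 was lower, Kcnn2, a calcium-gated potassium channel gene (MECS -0.61, SE 0.13, and naive -0.56, SE 0.15). Of the 17 own rows of that list 1 was lower in each brain, Ppp1r9b, the gene of spinophilin (MECS -1.71, SE 0.20, and naive -1.83, SE 0.21), and 0 were higher. For convulsion, 2 of the 11 loci were higher after MECS in input RNA, where 1.75% of all loci passed, and 1 of 11 in U1 RNA, where 0.446% did. Prkca, another protein kinase C gene, was higher in U1 RNA (0.77, SE 0.16, adjusted p = 0.0423) and in input RNA (0.85, SE 0.16, adjusted p = 0.0038), and Kcnn2 in input RNA (0.54, SE 0.14, adjusted p = 0.0349). Of the 12 scaffold and adaptor loci 1 was higher in input RNA, Sh3gl2, which encodes endophilin A1 (0.84, SE 0.20, adjusted p = 0.0295). No own row of these lists passed for convulsion.

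Summed levels of cell type markers also differed between U1 and input, without a test, and often not in the same way for loci and for own rows. The astrocyte list of 7 genes was lower in U1 at both levels. Its loci had 1380 to 1459 CPM in MECS U1 and 1086 to 1269 CPM in naive U1, against 3639 to 5452 CPM in MECS input and 4125 to 6403 CPM in naive input. These counts all lie in Slc1a2, the only 1 of the 7 with an opposite-strand feature. By own symbols, all 7 of which had counts, the list had 87.8 to 101 CPM in MECS U1 and 88.5 to 142 CPM in naive U1, against 229 to 242 CPM in MECS input and 203 to 423 CPM in naive input. Excitatory and pan-neuronal loci, 4 of 8 with a feature, overlapped, with 2191 to 2445 CPM in MECS U1 and 1699 to 2193 CPM in naive U1, beside 2081 to 2465 CPM in MECS input and 1732 to 2077 CPM in naive input. The own rows of the 8 markers were lower in U1, with 95.2 to 147 CPM in MECS U1 and 124 to 179 CPM in naive U1, against 148 to 254 CPM in MECS input and 218 to 267 CPM in naive input. The called own rows of the receptor and scaffold set were lower too, as were the own rows of astrocyte, oligodendrocyte and microglia markers. Own rows of inhibitory neuron markers overlapped, and those of endothelial markers were higher in U1.

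Inhibitory neuron markers differed as loci, which is 1 gene of 6, with 40.1 to 49.8 CPM in MECS U1 and 29.0 to 55.1 CPM in naive U1, against 125 to 205 CPM in MECS input and 158 to 245 CPM in naive input. Their 6 own rows overlapped, with 14.8 to 18.5 CPM in MECS U1 and 16.4 to 22.2 CPM in naive U1, beside 13.6 to 21.1 CPM in MECS input and 14.1 to 19.4 CPM in naive input. Oligodendrocyte loci, 2 of 7 with a feature, overlapped in MECS brain and lay just below input in naive brain, with 42.0 to 58.2 CPM in MECS U1 and 35.4 to 48.1 CPM in naive U1, beside 53.8 to 66.1 CPM in MECS input and 49.2 to 64 CPM in naive input. The 7 own rows were lower in U1, with 276 to 328 CPM in MECS U1 and 272 to 289 CPM in naive U1, against 531 to 701 CPM in MECS input and 498 to 742 CPM in naive input. Pericyte and smooth muscle loci, 4 of 7 with a feature, were higher in U1, with 1398 to 2144 CPM in MECS U1 and 1514 to 2682 CPM in naive U1, against 310 to 443 CPM in MECS input and 265 to 445 CPM in naive input. Their 7 own rows overlapped in MECS brain, with 465 to 509 CPM in MECS U1 beside 469 to 527 CPM in MECS input, and had 567 to 605 CPM in naive U1 against 436 to 558 CPM in naive input. Endothelial loci, 1 of 5 with a feature, had 645 to 1001 CPM in MECS U1 and 617 to 1145 CPM in naive U1, against 184 to 314 CPM in MECS input and 234 to 271 CPM in naive input. The 5 own rows had 254 to 276 CPM in MECS U1 and 286 to 351 CPM in naive U1, against 202 to 220 CPM in MECS input and 231 to 268 CPM in naive input. Microglia own rows had 246 to 251 CPM in MECS U1 and 230 to 274 CPM in naive U1, against 257 to 302 CPM in MECS input and 278 to 315 CPM in naive input. Microglia loci, 1 of 5 with a feature, overlapped, with 105 to 113 CPM in MECS U1 beside 83.6 to 117 CPM in MECS input. In naive brain they had 105 to 140 CPM in U1 beside 95 to 124 CPM in input. Oligodendrocyte precursor own rows were higher in MECS U1 and overlapped in naive brain. Choroid plexus and ependyma own rows overlapped in MECS brain and were lower in naive U1. The part of these marker shifts in the U1 to input and MECS to naive results was not tested.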

How the data were processed

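RNA of U1-70K precipitates and of input lysates was sequenced as single-end reads of 100 bp from a stranded total RNA kit with ribosomal RNA depletion, per the labels' protocols. The authors deposited 1 table of raw counts per library, and 88.3 to 91.3% of the listed reads stood in the row for no gene, which was left out of library sizes and tests. Trimmomatic 0.39, FastQC, HISAT2 2.2.0, StringTie 2.1.3, Salmon 1.4, DESeq2 and mm10 are named in the submitters' processing notes, and the counting program and annotation are not stated there. IDs matched GENCODE M21 for 55230 of 55471 rows. Opposite-strand features were summed to loci. Rows with low counts were removed with filterByExpr, TMM factors were computed on all features, and each comparison was fitted over all features or all loci with edgeR 4.0.16 (R 4.3.3) by its quasi-likelihood test, with Benjamini-Hochberg adjustment and a threshold of 0.05. CPM are counts scaled to 1e6 of a library's effective size, which is its gene counts after the filter times its TMM factor. The SE is the log2 change over the square root of F, and intervals of 95% are 1.96 SE to each side. These intervals are approximate and narrower than the quasi-likelihood test allows. For the Gria1 row in MECS brain, U1 against input, the interval was -1.39 to -0.01 while that test gave an unadjusted p of 0.0591. Ratios per lysate added 0.5 CPM. Tables were joined with Python 3.11.15 and pandas 2.3.3, and the fits were tested on simulated data. U1 and input libraries with the same title prefix were taken as 1 lysate. Deviations of such pairs from their group means correlated at 0.11, 0.22 and 0.12 in MECS brain and at 0.02, -0.10 and -0.02 in naive brain over 12184 features. Members and gene lists were chosen with earlier results of these data known. Values in every library are given for loci and own rows called in any comparison, for Camk2a and for the 6 most abundant loci. Alternatives were other scalings, no filter, DESeq2 1.42.0, tables without mitochondrial, ribosomal and small RNA genes, a lysate or replicate block, all 12 libraries in 1 fit, other definitions of a locus, and each library left out. The sequence of 1 window and 1 pathway gene are not reported here.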

Additional observations from a re-analysis of the deposited data

How the results depend on the processing

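Of 35 results on single loci, features and rows, 31 were called, 19 of these kept their call under every alternative run, and 0 changed direction. These are not separate results: the Grin1, Grin2c and Grin2d loci hold the same counts as the features Grin1os, Gm25837 and Gm45441. Apart from the Dlgap4 locus and 4930405A21Rik, results were included because they were called. For MECS against naive in input RNA the count of called loci, 0, was 1 with library size scaling, 1 with no filter and 2 with the replicate block, and 0 to 1 with a library left out (1 without naive input 3). The numbers shared by MECS and naive lysates are only numbers, and the block then called Dlgap4 (0.51, SE 0.13, adjusted p = 0.00392) and Shank2 (0.45, SE 0.14, adjusted p = 0.0363); same-numbered inputs correlated at 0.07, -0.03 and 0.00. The count of features, 0, was 1 with library size scaling and 0 to 1 with a library left out (1 without MECS input 3). In U1 RNA the counts of loci and of features, both 0, were each 1 with no filter, 1 with DESeq2, 1 with all 12 libraries in 1 fit and 0 with the block, and 0 to 1 with a library left out (1 without naive U1 2 or without MECS U1 2). The locus called was Dlgap4 and the feature 4930405A21Rik. For U1 against input in MECS brain the 3 loci became 5 with no filter, 6 with the replicate block and 2 to 3 with a library left out, and the 10 features became 14 with the block and 7 to 9 with a library left out. In naive brain the 7 loci stayed at 7 with the block and were 4 to 6 with a library left out, and the 11 features were 10 with the block, 7 without mitochondrial, ribosomal and small RNA genes, which removes Gm22892, Gm25837 and Gm26184 themselves, and 8 to 11 with a library left out. The effect on the ratio gave 0 calls in the set under each alternative run. With library size scaling 53.3% of the called naive U1 to input changes over all loci were higher, against 43.4% with TMM, and 50.1% against 40.1% over all features; the median moved by 0.08. The cause of these changes was not tested. Loci under 50 counts per library, Grm4, Grm5 and Grm8, and most own rows are limited by depth.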

Other observations

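Genes with several features allowed windows of 1 gene to be compared within a lysate, and 12 pairs of windows were read in 6 lysates. In 4 of the 12 the difference had 1 sign in 6 of 6 lysates, and in 8 it did not. These pairs were looked at after their values were seen and are given without a test. In Dlgap1 the log2 U1 to input ratio of 5031415H12Rik, in intron 6, exceeded that of AC079441.1, in introns 7 to 9, in 6 of 6 lysates. The excess was 0.54, 0.16 and 0.31 in MECS lysates and 0.57, 0.24 and 0.53 in naive lysates. In Nlgn1 the processed pseudogene Gm6197 exceeded Gm24250, annotated as a ribosomal RNA, in 6 of 6 lysates, with a mean of 0.35 (SD 0.30), though both lie in intron 3 and both share sequence with other copies. In Grin2b the intron window Gm14330 exceeded Gm14329, which holds part of the last coding exon, by 1.20 (SD 0.51) in 6 of 6 lysates. In Dlgap4 the windows Gm14174 and 4930405A21Rik, in introns 1 and 7, differed in sign between lysates, with Gm14174 higher in 3 of 6 and a mean difference of 0.02 (SD 0.33). In Nlgn1 the exon window A830092H15Rik did not lie below the intron windows as in Grin2b: it exceeded Gm24250 in 5 of 6 lysates, with a mean of 0.23 (SD 0.30), and had a mean difference of -0.12 (SD 0.37) from Gm6197, below it in 4 of 6. In Grin2b the exon window Gm22892 was below Gm14329 in 5 of 6 lysates (mean -0.24, SD 0.36). The mean difference was 0.52 (SD 0.72) between the Dlg1 windows Gm24879 and Gm49713 and 0.45 (SD 0.90) between the Dlgap2 windows Gm26184 and C030037F17Rik. For the other Dlgap4 pairs, both with Gm14172, it was 0.07 (SD 0.08) for Gm14174 less Gm14172 and -0.06 (SD 0.29) for Gm14172 less 4930405A21Rik.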
